A study of Mus musculus with 10 samples.

Results

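The genes described here are the collagens, the laminins and the genes that build, bind, cut or inhibit the cutting of extracellular matrix, measured in tuft cells and in other epithelial cells of the inflamed mouse pancreas. They were chosen by gene name alone, as every row whose symbol begins as a collagen chain, laminin chain, fibrillin, fibulin, microfibril-associated gene, matrix metalloproteinase (Mmp), tissue inhibitor of metalloproteinases (Timp), lysyl oxidase, Sparc, thrombospondin or Adamts protease gene, together with fibronectin, decorin, lumican, osteoglycin, dermatopontin, biglycan, periostin and the Efemp and nidogen genes. This gave 71 of the 12160 genes in the table. Of these, 3 match by name but encode no matrix protein: Col4a3bp encodes a ceramide transfer protein, and Mfap1a and Mfap1b, near-identical copies whose reads could be divided between them, encode a splicing factor. The other 68 encode matrix proteins or enzymes and inhibitors that act on them.

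The libraries came from wild type male CD-1 mice (the strain field of the labels reads Mixed) with pancreatitis induced by caerulein, a secretagogue that overstimulates the acinar cells, given for 4 cycles at 250 μg/kg, with up to 2 days of recovery. Cells were sorted as Cd45-neg and EpCAM+, and Siglec f divided them into tuft cells (Siglec f+, 5 libraries) and non-tuft epithelium (Siglec f-neg, 5 libraries), with 100 cells per library. No untreated pancreas was compared, and all groups carried the same treatment; the age of the mice was not given in the sources used here. Both groups were sorted from 5 mice with pancreatitis, and each tuft library came from its own mouse. The sources do not say whether equal replicate numbers mark the same mouse, and the libraries were compared as unpaired.

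Extracellular matrix in an epithelial organ is layered. Directly beneath the epithelium lies the basement membrane, a sheet of laminin and type IV collagen networks joined by nidogen, to which epithelial cells add a part of the components. Around it lies interstitial matrix of fibrillar collagens, small proteoglycans and elastic microfibrils, made mainly by fibroblasts and, in the pancreas, by stellate cells, which deposit it in excess in chronic pancreatitis. Metalloproteinases and Adamts proteases cut these proteins, and the Timp proteins inhibit the proteases.

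Levels are given as the deposited normalized log2(RPKM + 1), where RPKM is reads per kilobase of transcript, scaled to the reads of the library, so that levels can be set beside each other between genes per length. The lowest value was 0 in 9 libraries and 0.17 in non-tuft library 2. A value there says only that the gene is listed at the floor: Gapdh, which every cell uses, is listed at 0 in 4 libraries and at the floor of non-tuft library 2. Read depth is unknown, since the table holds no counts. Tuft marker genes matched the labels (15 of 15 listed were higher in tuft libraries), and Siglecf was at 5.62 to 7.52 in tuft and at 0 to 1.61 in non-tuft libraries. The same markers were also present in some non-tuft libraries, with a summed RPKM of 212, 533, 8.72, 0.834 and 522 in libraries 1 to 5, against 4603 to 12860 in tuft libraries. Acinar markers were not absent from the tuft libraries, with a summed RPKM of 689 to 61586 against 68364 to 102417 in non-tuft libraries, and 15 of 17 acinar markers were lower in tuft libraries (12 without both libraries numbered 5). Ptprc, which encodes Cd45, was at 2.74 to 4.33 in tuft and at 0 to 1.93 in non-tuft libraries, although the sort took Cd45-neg cells. It was the only one called of 12 listed leukocyte markers (8.33%, against 4.32% of all genes called higher). The summed RPKM of the 12 overlapped, at 20.5 to 119 in tuft and 9.15 to 153 in non-tuft libraries. The libraries numbered 5 of both groups stand apart from the rest in matrix genes, and calls that were lost without both of them are given as such.

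Most matrix genes were at low levels in both kinds of epithelium. Only 9 of 71 (12.7%) were above the floor in all 10 libraries, against 50.2% of all genes: Timp2, Lama5, Mmp14, Mmp15, Col9a3, Mfap3, Mfap1a, Mfap1b and Col4a3bp. In non-tuft libraries 1 to 5, the number of matrix genes above the floor was 39, 31, 48, 37 and 66. In tuft libraries 1 to 5 it was 21, 18, 23, 21 and 60, so that every tuft library except the fifth listed fewer matrix genes than any non-tuft library. Of the 71 genes, 37 were listed at 0 in tuft libraries 1 to 4, and 33 of these 37 were above 0 in tuft library 5.

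**Figure D1:**
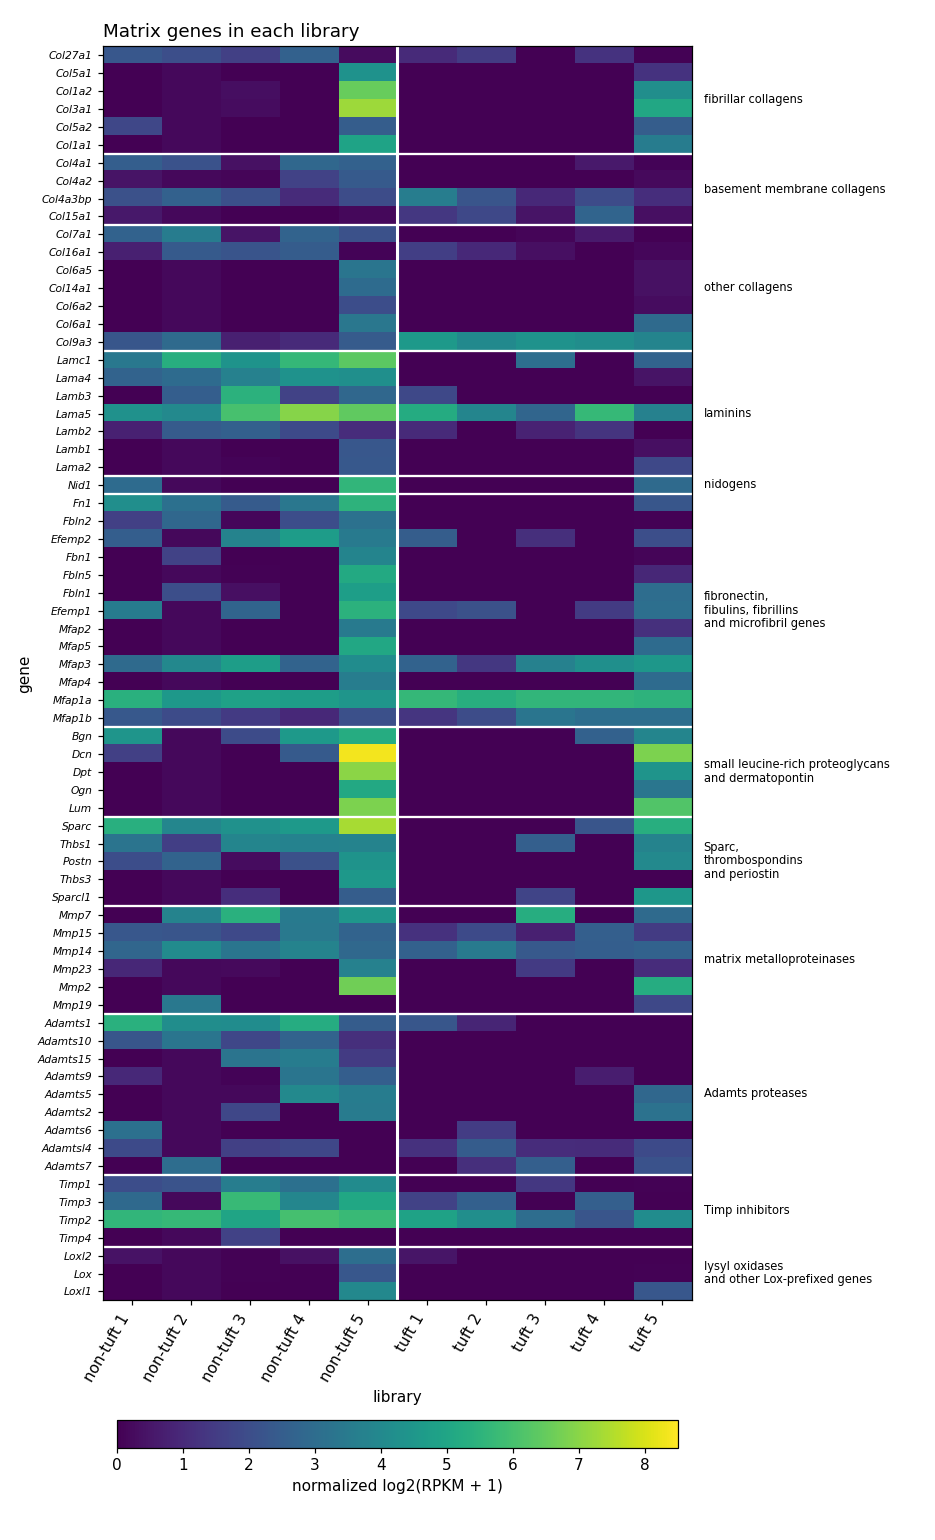
Each row is 1 of 70 of the 71 genes, grouped by class, and each column is 1 library (non-tuft 1 to 5, then tuft 1 to 5). Color gives the normalized log2(RPKM + 1), and the libraries numbered 5 held 66 and 60 of all 71 genes above the floor, against 18 to 48 in the other 8 libraries.

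Tuft and non-tuft libraries were compared by limma across all 12160 genes, and a gene was called when its Benjamini-Hochberg adjusted p was under 0.05 and its fold over 4 (2 on the log2 scale). Among matrix genes, 8 of 71 (11.3%) were called lower in tuft libraries, against 3.99% of all genes, and 1 of 71 (1.41%) was called higher, against 4.32%. The genes called lower were Lama4, Lamc1, Fn1, Sparc, Timp1, Adamts1, Adamts10 and Col7a1, and the gene called higher was Col9a3. On adjusted p alone, 11 were lower (15.5%, against 5.55% of all genes), adding Col4a1, Fbln2 and Timp2. In 8 of 71 (11.3%) every tuft library was below every non-tuft library, against 5.12% of all genes, and in 1 (Col9a3) every tuft library was above, against 6.31%. The median log2 fold change was -0.68 over the matrix genes and 0.02 over all genes, and 63 of 71 matrix genes (88.7%) had a fold change below 0, against 49.1% of all genes. This count is not steady, since 30 of the 71 changed sign when some single library was left out, none of them a called gene. Acinar markers (15 of 17), islet markers (5 of 14) and fibroblast or stellate markers (3 of 13) were also called lower in tuft libraries. Without both libraries numbered 5, 12 acinar, 1 islet and 3 fibroblast or stellate markers were called lower. The part of such cells in the matrix gene differences was not tested. Centring on 76 ribosomal protein genes in place of the deposited scale left 4 genes lower and 1 higher, with 1512 of all genes called. Timp1, Sparc, Adamts10 and Col7a1 lost their calls. Adding 10 in place of 1 before the logarithm left no matrix gene called, with 278 of all genes called. The log2 fold change of Lama4 then shrank to -1.10, with a limma adjusted p = 0.00270. In sorted bulk libraries, fewer cells of a type and less RNA per cell cannot be told apart, and this holds for each difference given here.

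**Figure D2:**
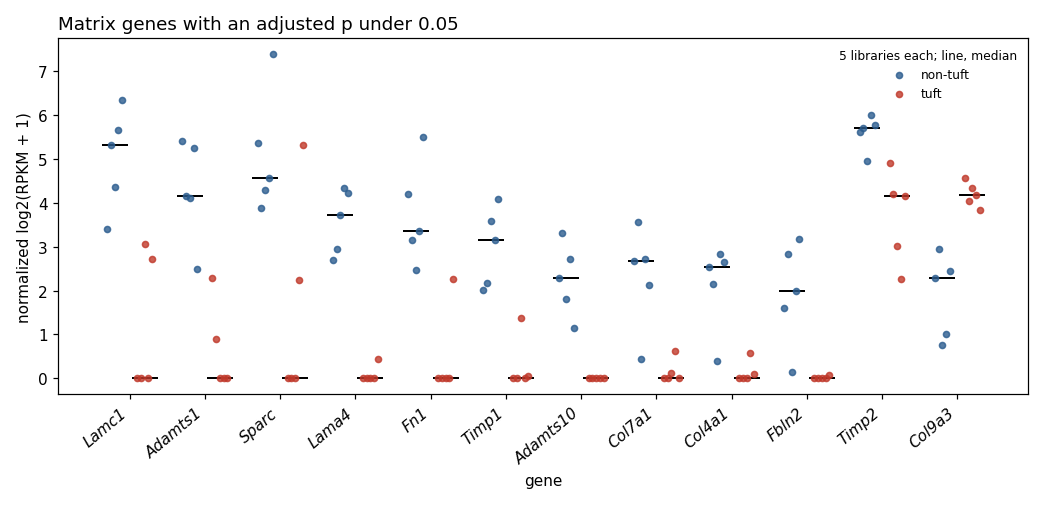
Normalized log2(RPKM + 1) of the 12 matrix genes with an adjusted p under 0.05, with 1 point per library (non-tuft blue, tuft red) and a line at each group's median of 5. Tuft libraries mostly sit at 0 for the 11 lower genes other than Timp2, whereas for Col9a3 the 5 tuft libraries sit between 3.83 and 4.58, all above the non-tuft libraries.

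Adamts1, a secreted protease that cuts proteoglycans such as versican, and Timp1, an inhibitor of most metalloproteinases, have their start regions shown first, because both were called lower in tuft libraries. Col1a2 and Col3a1, chains of the type I and type III collagens of interstitial matrix, are shown beside them because both were at 0.30 or below in all libraries but those numbered 5. Each sequence is the 250 bases before the RefSeq gene start in GRCm38.p6, 5′ to 3′ on the gene's strand, and these 4 genes and the motifs were chosen after their values were seen. Capitals mark each match to a motif searched on both strands. The motifs were TATAAA (the TATA box), the box CCAAT, the GC box GGGCGG, the AP-1 element TGANTCA and the TEAD element GGAATG. A match on the other strand stands as its reverse complement, and no printed match overlaps another. The windows lie at chr16:85803114-85803363 (minus strand) for Adamts1, chrX:20869916-20870165 (plus) for Timp1, chr6:4505368-4505617 (plus) for Col1a2 and chr1:45311288-45311537 (plus) for Col3a1.
Adamts1: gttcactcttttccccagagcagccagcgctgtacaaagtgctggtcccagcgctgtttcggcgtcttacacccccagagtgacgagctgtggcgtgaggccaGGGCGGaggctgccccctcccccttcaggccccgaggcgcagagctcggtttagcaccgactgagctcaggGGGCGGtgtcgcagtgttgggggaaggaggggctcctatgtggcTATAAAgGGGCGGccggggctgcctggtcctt
Timp1: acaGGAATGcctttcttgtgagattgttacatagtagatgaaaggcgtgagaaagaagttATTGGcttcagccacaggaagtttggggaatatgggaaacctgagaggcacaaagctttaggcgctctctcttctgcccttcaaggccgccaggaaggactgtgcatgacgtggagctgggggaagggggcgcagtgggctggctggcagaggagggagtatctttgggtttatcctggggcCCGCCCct
Col1a2: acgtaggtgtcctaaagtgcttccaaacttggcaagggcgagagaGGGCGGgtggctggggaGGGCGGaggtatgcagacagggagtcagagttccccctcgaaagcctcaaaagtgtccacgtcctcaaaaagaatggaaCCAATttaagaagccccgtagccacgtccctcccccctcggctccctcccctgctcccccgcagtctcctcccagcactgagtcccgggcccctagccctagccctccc
Col3a1: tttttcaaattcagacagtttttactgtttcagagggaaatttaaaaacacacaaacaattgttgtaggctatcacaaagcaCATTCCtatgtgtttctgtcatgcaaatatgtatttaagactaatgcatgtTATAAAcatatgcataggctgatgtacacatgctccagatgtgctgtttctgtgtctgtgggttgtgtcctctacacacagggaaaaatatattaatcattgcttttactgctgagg

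The Adamts1 window held TATAAA at -32 and GGGCGG at 3 positions, the Timp1 window held 1 CCAAT, 1 GGGCGG and 1 GGAATG, the Col1a2 window held 1 CCAAT and 2 GGGCGG, and the Col3a1 window held 1 TATAAA and 1 GGAATG. RefSeq gave a window for 46 of the 71 genes. GGGCGG was in 31 of the 46 (67.4%), against 32.9% of all 27025 windows of the same length. Those windows are not limited to the 12160 genes measured here, and no share over the measured genes was computed. The other motifs were in shares near those of all windows: CCAAT in 14 (30.4%, against 34.5%), TATAAA in 4 (8.70%, against 13.0%), TGANTCA in 3 (6.52%, against 6.87%) and GGAATG in 5 (10.9%, against 12.6%). These matches are a description of the letters in the windows.

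Laminins are trimers of an alpha, a beta and a gamma chain, and 8 chains were listed. All 8 had a fold change below 0 (median -1.22) and 2 were called lower. Lama4, the alpha 4 chain known from the basement membranes of vessels (mm9 chr10:38685321-38829994), was at 2.70, 2.96, 3.72, 4.33 and 4.23 in non-tuft libraries 1 to 5, at 0 in tuft libraries 1 to 4 and at 0.45 in tuft library 5. The groups did not overlap, and the level was lower in tuft libraries by limma (log2 fold change -3.50, SE 0.42, adjusted p = 1.58e-04). Of the 12 matrix genes with an adjusted p under 0.05, it had the smallest. Of 6 endothelial markers listed, 5, 1, 1, 1 and 4 were above the floor in non-tuft libraries 1 to 5 and 4, 3, 3, 4 and 5 in tuft libraries. Their summed RPKM was 1.27 to 46.4 in non-tuft and 33 to 95.6 in tuft libraries, where Tek and Esam were called higher. Esam was not called without both libraries numbered 5, and the part of endothelial markers in the Lama4 level was not tested.

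Lamc1, the gamma 1 chain shared by most laminin trimers (mm9 chr1:155066052-155179916), was at 3.41, 5.32, 4.36, 5.67 and 6.34 in non-tuft libraries. In tuft libraries 1, 2 and 4 it was listed at 0, and tuft libraries 3 and 5 were at 3.07 and 2.72. Every tuft library was below every non-tuft library (limma log2 fold change -3.86, SE 0.76, adjusted p = 0.00477, and 0.0187 without both libraries numbered 5). Lama5, the alpha 5 chain of epithelial basement membranes, was present in all 10 libraries, at 3.99 to 6.95 in non-tuft (median 6.04) and 2.78 to 5.70 in tuft libraries (median 3.86). These ranges overlapped, and the difference did not pass the test (log2 fold change -1.28, 95% interval -2.79 to 0.23, adjusted p = 0.286 by limma).

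Lamb3, a beta chain of epithelial laminin, was at 0, 2.55, 5.47, 1.67 and 2.85 in non-tuft libraries, and among the tuft libraries it was above 0 in the first alone, at 1.84 (log2 fold change -2.14, SE 0.82, limma adjusted p = 0.120). The groups overlapped, and its level could not be separated between them at 5 libraries each. Lama2, an alpha chain of muscle and mesenchymal basement membranes, was at 2.34 and 1.84 in the libraries numbered 5 and at 0.17 or below in the other 8. Lamb1 and Lamb2, both beta chains that pair with gamma 1, gave adjusted p of 0.634 and 0.152 by limma.

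Type IV collagen is the network collagen of basement membranes. Col4a1, its alpha 1 chain (mm9 chr8:11198423-11312826), was at 2.53, 2.14, 0.38, 2.83 and 2.64 in non-tuft libraries and at 0, 0, 0, 0.57 and 0.09 in tuft libraries. The lowest non-tuft library lay below the highest tuft library, and the difference passed the adjusted p but not the fold (log2 fold change -1.97, SE 0.48, limma adjusted p = 0.0169, and 0.0823 without both libraries numbered 5). Col4a2, which starts beside Col4a1 on the opposite strand with 22 bases in common, was at 0.10 to 2.40 in non-tuft libraries and at 0 in tuft libraries 1 to 4 and 0.22 in tuft library 5 (limma adjusted p = 0.265). Col4a1 also shares 6081 bases of its span with Gm15418 on the opposite strand. The libraries carry no strand, so reads in the shared bases cannot be assigned to one of these genes. Nid1, which links the laminin and type IV collagen networks, was at 2.98 and 5.60 in non-tuft libraries 1 and 5, at 2.93 in tuft library 5 and at the floor in the other 7 (limma adjusted p = 0.534). Col15a1, a collagen of the basement membrane zone, was one of the few with higher values in tuft libraries (1.39, 1.84, 0.44, 2.75 and 0.33, against 0 to 0.54), but it did not pass the test (log2 fold change 1.17, SE 0.48, limma adjusted p = 0.150).

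Col7a1, the collagen of the anchoring fibrils that fasten basement membranes to the tissue below (mm9 chr9:108855631-108886920), was at 2.66, 3.57, 0.45, 2.72 and 2.12 in non-tuft libraries. Its tuft values were 0, 0, 0.12, 0.63 and 0, and only tuft library 4 exceeded the lowest non-tuft library. It was called lower (limma log2 fold change -2.15, SE 0.53, adjusted p = 0.0169), and this call was lost without both libraries numbered 5 (limma adjusted p = 0.0739, log2 fold change -2.16) and without non-tuft library 2 alone, where the log2 fold change was -1.84.

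Col9a3, a chain of type IX collagen, which is best known from the surface of cartilage fibrils, ran the other way (mm9 chr2:180332495-180356894). It was at 4.58, 4.04, 4.34, 4.17 and 3.83 in tuft libraries and at 2.28, 2.94, 0.75, 1.02 and 2.45 in non-tuft libraries. Every tuft library was above every non-tuft library, and the tuft libraries spanned 0.75 against 2.19 (log2 fold change 2.30, SE 0.47, limma adjusted p = 0.00623). The exact two-sided permutation p was 0.00794, the smallest that 5 against 5 libraries taken as unpaired can give. The non-tuft libraries in which it was highest (1, 2 and 5) were those with the higher sums of tuft markers, whose part in its non-tuft values was not tested. Without both libraries numbered 5 its log2 fold change was 2.54 (limma adjusted p = 0.0202). At its 3′ side 234 bases are shared with Tcfl5 on the opposite strand.

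Fibronectin, encoded by Fn1 (mm9 chr1:71632094-71699774), is the glycoprotein of provisional matrix to which cells attach through integrins. It was at 4.19, 3.15, 2.46, 3.37 and 5.51 in non-tuft libraries, at 0 in tuft libraries 1 to 4 and at 2.27 in tuft library 5. The tuft library with the highest value lay just below the lowest non-tuft library, and the level was lower in tuft libraries by limma (log2 fold change -3.28, SE 0.63, adjusted p = 0.00415, and 0.00215 without both libraries numbered 5). Fbln2, a fibulin that binds fibronectin and basement membrane proteins, was at 1.61, 2.83, 0.15, 1.99 and 3.17 in non-tuft libraries and at 0 in the first 4 tuft libraries, with 0.06 in tuft library 5. Its adjusted p was under 0.05 with a fold under 4 (limma log2 fold change -1.94, SE 0.52, adjusted p = 0.0287, and 0.111 without both libraries numbered 5). The microfibril-associated gene Mfap3 was at 2.72 to 4.74 in non-tuft and 1.37 to 4.51 in tuft libraries (limma adjusted p = 0.746). Mfap1a, one of the splicing factor genes taken in by name, had the highest mean level of the 71, at 4.45 to 5.40 and 5.32 to 5.67 (limma adjusted p = 0.211), and its copy Mfap1b was at 0.96 to 2.35 and 1.31 to 3.30 (adjusted p = 0.342).

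Sparc encodes a secreted glycoprotein that binds collagen and modulates cell attachment (mm9 chr11:55208002-55233582). Its highest value was above that of any other gene called lower. It was at 5.37, 3.89, 4.28, 4.57 and 7.39 in non-tuft libraries, against 0, 0, 0, 2.23 and 5.32 in tuft libraries. Tuft library 5 lay within the non-tuft range, whereas the other 4 tuft libraries lay below it (limma log2 fold change -3.59, SE 1.01, adjusted p = 0.0341). Without both libraries numbered 5 the groups no longer overlapped and the log2 fold change was -3.97 (limma adjusted p = 0.00484). The call is the least steady of the 8, since leaving out any single library other than non-tuft library 2 or tuft library 5 ended it (limma adjusted p of 0.0579 to 0.0998). Thbs1, encoding thrombospondin 1, an adhesive glycoprotein that activates TGF-beta, was at 1.56 to 3.86 in non-tuft libraries, at 2.57 and 3.80 in tuft libraries 3 and 5 and at 0 in the other 3 (log2 fold change -1.98, limma adjusted p = 0.132, and 0.0348 without tuft library 5). Postn, encoding periostin, gave an adjusted p of 0.323 by limma. Sparcl1, a relative of Sparc, was at 1.13 and 2.51 in non-tuft libraries 3 and 5, at 1.73 and 4.48 in tuft libraries 3 and 5 and at the floor in the other 6 (limma adjusted p = 0.773).

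The Timp inhibitors had the lowest median fold change of the classes of more than 1 gene (log2 -2.04, 4 genes). Timp1, which lies wholly within Syn1 on the opposite strand (mm9 chrX:20447292-20451861), was at 2.02, 2.18, 3.59, 3.15 and 4.09 in non-tuft libraries and at 0, 0, 1.37, 0 and 0.06 in tuft libraries. The groups did not overlap (limma log2 fold change -2.72, SE 0.50, adjusted p = 0.00316, and 0.0235 without both libraries numbered 5). Timp2, which inhibits metalloproteinases and also takes part in the activation of Mmp2 at the cell surface, was among the most abundant matrix genes in both groups. Its levels were 5.61, 5.71, 4.95, 6.0 and 5.77 in non-tuft and 4.91, 4.20, 3.02, 2.26 and 4.15 in tuft libraries. Every tuft value was below every non-tuft value, by 0.046 at the closest (limma log2 fold change -1.90, SE 0.51, adjusted p = 0.0269, and 0.0823 without both libraries numbered 5). Timp3, an inhibitor that stays bound to matrix, was at 2.90, 0.17, 5.73, 3.91 and 5.07 in non-tuft libraries and at 1.69, 2.60, 0, 2.57 and 0 in tuft libraries (log2 fold change -2.18, SE 0.95, limma adjusted p = 0.169). Timp4 was above the floor in non-tuft library 3 alone, at 1.68.

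Among 9 Adamts genes, 2 were called lower. Adamts1 (mm9 chr16:85794072-85803358), shown above, was at 5.41, 4.16, 4.12, 5.25 and 2.49 in non-tuft libraries and at 2.28, 0.89, 0, 0 and 0 in tuft libraries, with no overlap (limma log2 fold change -3.65, SE 0.63, adjusted p = 0.00212). Adamts10, which binds fibrillin microfibrils (mm9 chr17:33661149-33690727), was at 2.28, 3.31, 1.82, 2.71 and 1.15 in non-tuft libraries and listed at 0 in all 5 tuft libraries (limma adjusted p = 0.00413). It passed the fold limit on the log2(RPKM + 1) scale. No fold is given for it, since all 5 tuft values are a listed 0, which sets no bound. Adamts15 was likewise listed at 0 in all 5 tuft libraries, but the first 2 non-tuft libraries had floor values too, and its adjusted p was 0.130 by limma. Adamts7 was at 3.05 in non-tuft library 2 and at 0 in the other 4, against 0, 1.15, 2.58, 0 and 2.14 in tuft libraries (limma adjusted p = 0.670).

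None of the 6 Mmp genes passed the test, and their median log2 fold change was -0.58. Mmp7, matrilysin, which is made by epithelial cells, was at 0, 3.81, 5.41, 3.51 and 4.45 in non-tuft libraries and at 0, 0, 5.29, 0 and 2.95 in tuft libraries. It was therefore high in some libraries and at 0 in others of both groups (log2 fold change -1.79, SE 1.15, limma adjusted p = 0.372). Mmp14, a membrane-anchored metalloproteinase that activates Mmp2 and cuts collagen at the cell surface, was present in all 10 libraries, at 2.79 to 4.11 in non-tuft and 2.39 to 3.46 in tuft libraries. The log2 fold change was -0.64 with a 95% interval of -1.51 to 0.24 (limma adjusted p = 0.366). Mmp15, also anchored in the membrane, was at 1.86 to 3.43 in non-tuft and 0.74 to 2.56 in tuft libraries (limma adjusted p = 0.224). Mmp19 was above the floor in non-tuft library 2 and tuft library 5 alone, at 3.41 and 1.84.

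Many collagens, small proteoglycans and microfibril genes had their highest values in the libraries numbered 5. Of the 71 genes, 23 (32.4%) had library 5 as the highest of its group by at least 1 on the log2 scale in both groups, against 82 of all genes (0.674%). This lead was chosen after the values were seen, and it is given as a description without a test. Just inside the limit was Efemp1, with a smaller lead of 1.01, and just outside it was Fbln5, with 0.94. The 23 genes were at 2.34 to 8.34 in non-tuft library 5 (median 5.08) and at 1.17 to 6.84 in tuft library 5 (median 3.21). Of their 184 values in the other 8 libraries, 160 were under 0.5, and 14 of the 23 genes were under 0.5 in all 8.

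Type I collagen, the main fibrillar collagen of scar, is a trimer of the Col1a1 and Col1a2 chains. Col1a1 was at 4.93 and 3.58 in non-tuft and tuft library 5, and at 0.17 or below in the other 8. Col1a2 was at 6.51 and 4.20, and Col3a1 at 7.26 and 5.10, and both were at 0.30 or below in the other 8. For these 3 genes the limma fold changes were within 1 SE of 0 (log2 -0.30, SE 1.00 for Col1a1, -0.56, SE 1.24 for Col1a2 and -0.52, SE 1.41 for Col3a1), with 95% intervals that reach from below -2 to above 1. Col27a1, a fibrillar collagen of cartilage, lacked this pattern, with its lowest values in non-tuft library 5 (0.26, the other 4 being at 1.60 to 2.63) and tuft libraries 3 and 5 (0 and 0.05, against 1.02 to 1.47).

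The small proteoglycans that coat collagen fibrils followed the same libraries. Dcn, encoding decorin, was at 1.60, 0.17, 0, 2.41 and 8.34 in non-tuft libraries and at 6.84 in tuft library 5 and 0 in the other 4 tuft libraries. Lum, encoding lumican, was at 6.84 and 6.19 in the libraries numbered 5 and at 0.17 or below elsewhere. Dpt, Ogn and Mmp2, named after their values were seen, were at 7.03, 5.14 and 6.67 in non-tuft library 5, at 4.40, 3.35 and 5.25 in tuft library 5 and at 0.17 or below in the other 8 libraries. Bgn, encoding biglycan, was spread wider, at 4.44, 0.17, 1.95, 4.59 and 5.27 in non-tuft libraries and at 0, 0, 0, 2.65 and 3.88 in tuft libraries (limma adjusted p = 0.263). The enzymes that crosslink collagen and elastin were again highest in non-tuft library 5, with Lox at 2.32, Loxl1 at 3.95 and Loxl2 at 3.08. In tuft library 5, Loxl1 was at 2.30, whereas Lox and Loxl2 were at 0.05 and 0.02.

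On the linear scale, the summed RPKM of the 6 fibrillar collagens was 296 in non-tuft library 5 and 2.48 to 6.51 in the other 4 non-tuft libraries. It was 67.8 in tuft library 5 and 0 to 1.78 in the other 4. For the small proteoglycans and dermatopontin the sums were 638 in non-tuft library 5 and 229 in tuft library 5, against 0.623 to 27.4 and 0 to 5.26 in the rest of each group. The laminins did not divide in this way, with 48.5 to 237 in non-tuft libraries (203 in library 5) and 13.6 to 69.8 in tuft libraries (25.2 in library 5). The Timp genes were at 55.0 to 102 in non-tuft and 8.70 to 31.2 in tuft libraries, and these ranges did not overlap.

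Fibroblast and stellate cell markers that are not among the matrix genes were in part higher in the libraries numbered 5. Of 22 such markers 13 were listed, and 7 of the 13 were highest in library 5 of both groups. Their summed RPKM was 124 to 182 in non-tuft libraries 1 to 4 and 487 in the fifth, and 87.3 in tuft library 5 against 2.99 to 13.2 in tuft libraries 1 to 4. Above the floor were 12 of 13 in non-tuft library 5 (4 to 8 in the others) and 10 of 13 in tuft library 5 (1 to 4 in the others). Of the defining markers, Pdgfra was at 4.65 in non-tuft library 5, 1.58 in non-tuft library 4 and 1.85 in tuft library 5, and at the floor in the other 7. Pdgfrb was at 3.76 and 0.57 in the libraries numbered 5 and at the floor in the other 8. Others ran otherwise: Tagln was at 0 in both libraries numbered 5 and highest in non-tuft library 4 (4.57), as was Rgs5 (5.76, against 2.52 in non-tuft library 5), and Dpp4 had its lowest non-tuft value in library 5 (3.39, against 5.16 to 6.75). The lower sum in tuft libraries also holds 3 markers called lower there, Dpp4, Pcolce and Rgs5. The acinar sum in tuft library 5 was the lowest of the 10, at 689. The part of such cells or of their free RNA in the matrix values was not tested.

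**Figure D3:**
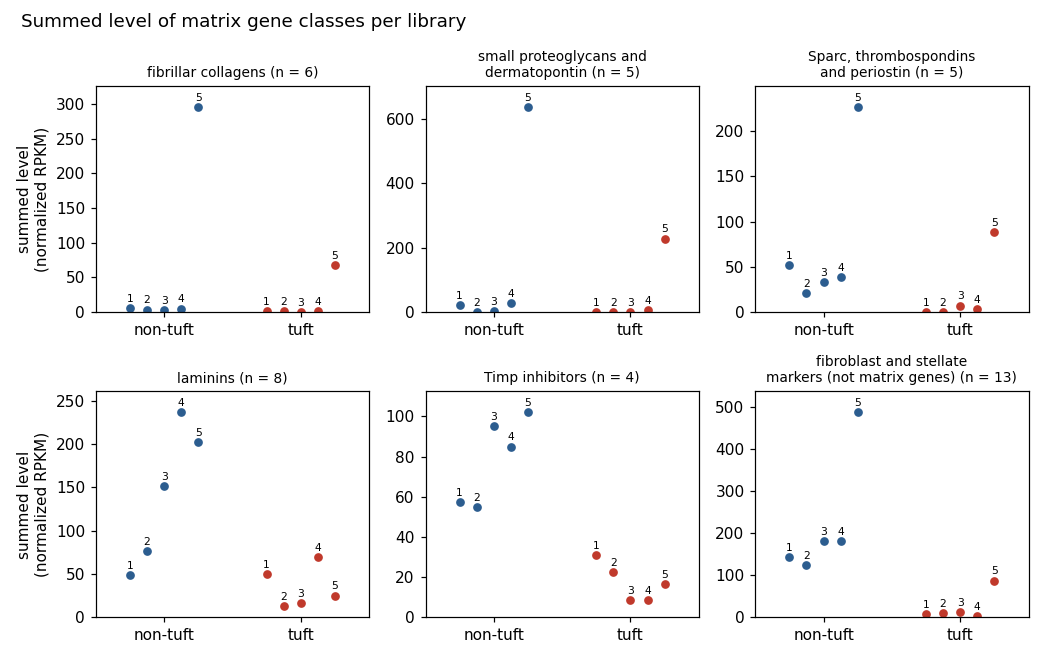
Summed normalized RPKM (linear axis from 0) of 5 matrix gene classes and of the fibroblast and stellate markers, with 1 point per library labelled by its replicate number. Fibrillar collagens and small proteoglycans lie above the rest in library 5 of both groups (296 and 67.8 for the collagens), whereas laminins and Timp genes do not show library 5 apart.

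Among the 23 genes with this pattern, Fn1 and Sparc were called, and both differ from the rest in having high values in all non-tuft libraries (2.46 and 3.89 at the lowest). The level in non-tuft library 5 was above that in tuft library 5 for 22 of the 23 genes, by a median of 1.73 on the log2 scale (range -1.97 to 3.24), the exception being Sparcl1. This is a difference between 2 libraries and has no replicate check. Without both libraries numbered 5, 7 matrix genes were called lower (9.86%, against 2.99% of all genes) and Col9a3 was still called higher (1.41%, against 3.63% of all genes). The 7 were those named above without Col7a1. The median log2 fold change of the 71 genes was then -0.49, against 0.00 over all genes.

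**Figure D4:**
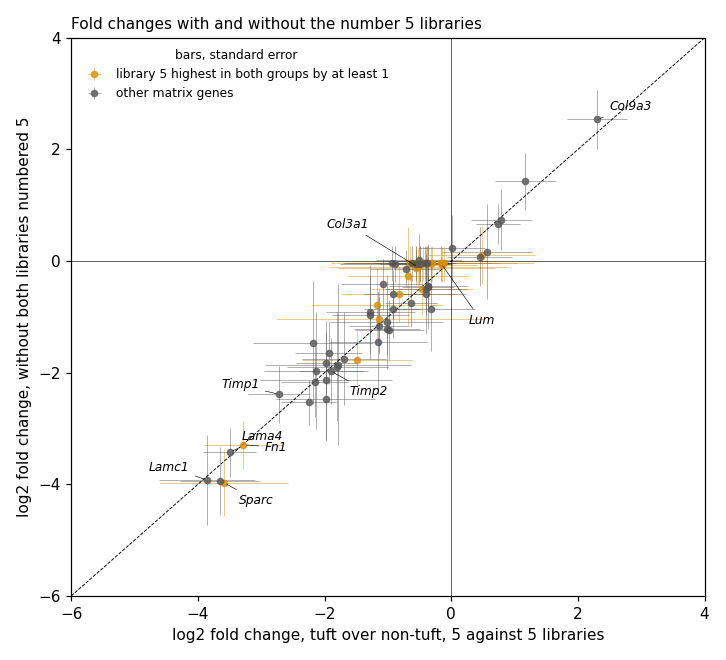
Log2 fold change (tuft over non-tuft) of each matrix gene with all 10 libraries (horizontal axis) and without both libraries numbered 5 (vertical axis), with bars of 1 SE and a dashed line of equality. Many genes highest in library 5 of both groups (orange) sit near 0 on the vertical axis, as 14 of the 23 were under 0.5 in the other 8 libraries, whereas Lama4 (-3.50 and -3.43), Fn1 (-3.28 and -3.29) and Col9a3 (2.30 and 2.54) stay near the line.

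Other genes that make, process or receive matrix were compared in 6 lists, which were drawn up with earlier results of these data known, and their counts stand beside the 3.99% of all genes called lower and the 4.32% called higher. Of 24 listed genes of collagen synthesis and processing, 5 were called lower (20.8%) and 1 higher (4.17%, near the share of all genes; median log2 fold change -1.04). Serpinh1, the collagen-specific chaperone Hsp47, was at 2.30 to 3.24 in non-tuft and 0 to 1.14 in tuft libraries (limma log2 fold change -2.47, SE 0.40, adjusted p = 0.00149). P4hb, the disulfide isomerase that is also the beta subunit of prolyl 4-hydroxylase and that acts on many other secreted proteins, was at 8.26 to 9.51 and 6.31 to 7.57 (log2 fold change -2.01, limma adjusted p = 0.00625). Sec24d, a subunit of the vesicle coat that carries procollagen and other cargo out of the endoplasmic reticulum, was at 3.83 to 4.77 and 0 to 2.79 (log2 fold change -2.94, limma adjusted p = 0.00365). Fkbp10, a prolyl isomerase of collagen folding, was at 0, 2.87, 3.75, 1.29 and 3.57 in non-tuft libraries and listed at 0 in all 5 tuft libraries (limma adjusted p = 0.0353). Its call was lost without both libraries numbered 5 (limma adjusted p = 0.152).

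The enhancers of procollagen C-propeptide cleavage ran in opposite directions. Pcolce was at 3.15 to 7.06 in non-tuft libraries, at 4.66 in tuft library 5 and at 0 in the other 4 tuft libraries (limma log2 fold change -4.03, adjusted p = 0.0157). Pcolce2 was at 6.87, 6.19, 6.93, 5.86 and 6.83 in tuft libraries and at 0, 4.40, 0, 0 and 4.82 in non-tuft libraries (log2 fold change 4.69, SE 0.96, limma adjusted p = 0.00596). As for Col9a3, every tuft library was above every non-tuft library, and the non-tuft libraries that held it (2 and 5) had the highest sums of tuft markers. Its tuft level was higher than that of every one of the 12 matrix genes with an adjusted p under 0.05 in the same libraries.

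Of 21 listed integrins and other matrix receptors, 3 were called higher (14.3%) and 1 lower (4.76%, near the share of all genes; median log2 fold change -0.54). Itgb6, the beta chain of an epithelial integrin that binds fibronectin and latent TGF-beta, was at 3.62 to 4.39 in tuft libraries and at 0, 2.07, 4.31, 0 and 0.98 in non-tuft libraries (log2 fold change 2.53, limma adjusted p = 0.0357, and 0.143 without both libraries numbered 5). Cd47, a receptor of thrombospondin 1, was at 7.93 to 8.60 against 3.89 to 6.79 (log2 fold change 2.36, limma adjusted p = 0.0140), and the syndecan Sdc4 was at 9.18 to 10.28 against 6.69 to 7.85 (log2 fold change 2.24, limma adjusted p = 0.00215). Ddr1, a receptor tyrosine kinase activated by collagen, was the receptor called lower, at 1.02 to 1.93 in tuft and 3.15 to 4.65 in non-tuft libraries (log2 fold change -2.23, limma adjusted p = 0.00279). Dag1, encoding the laminin receptor dystroglycan, passed the adjusted p with a smaller fold (log2 fold change -1.33, limma adjusted p = 0.0267). The laminin-binding integrin chains Itga6 and Itgb4 and the shared chain Itgb1 were above 2 in all 10 libraries and were not called.

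Of 14 other basement membrane genes, 2 (14.3%) were called lower: Pxdn, the peroxidase that crosslinks type IV collagen, at 4.59 to 5.17 in non-tuft and 0 to 2.58 in tuft libraries (log2 fold change -3.53, limma adjusted p = 4.21e-04), and Tinag (log2 fold change -2.64, adjusted p = 0.0207, and 0.110 without both libraries numbered 5). Of 18 other matricellular and elastic matrix genes 4 (22.2%) were called lower, namely Spp1, Ctgf, Ltbp3 and Igfbp7, of which Ctgf and Ltbp3 were not called without both libraries numbered 5 (limma adjusted p = 0.107 and 0.159). Spp1, encoding osteopontin and also a ductal marker, was the most abundant of them, at 8.73 to 11.66 in non-tuft and 3.47 to 8.39 in tuft libraries (log2 fold change -4.55, limma adjusted p = 0.00413). Of 17 genes of TGF-beta signaling, 2 (11.8%) were called lower (Smad7, and Ctgf again), and neither was called without both libraries numbered 5 (0.0536 for Smad7). Of 25 other matrix proteases and inhibitors 2 (8.0%) were called lower (the cathepsin Ctsl and the membrane protease Hpn, hepsin). None of these 4 lists held a gene called higher.

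**Figure D5:**
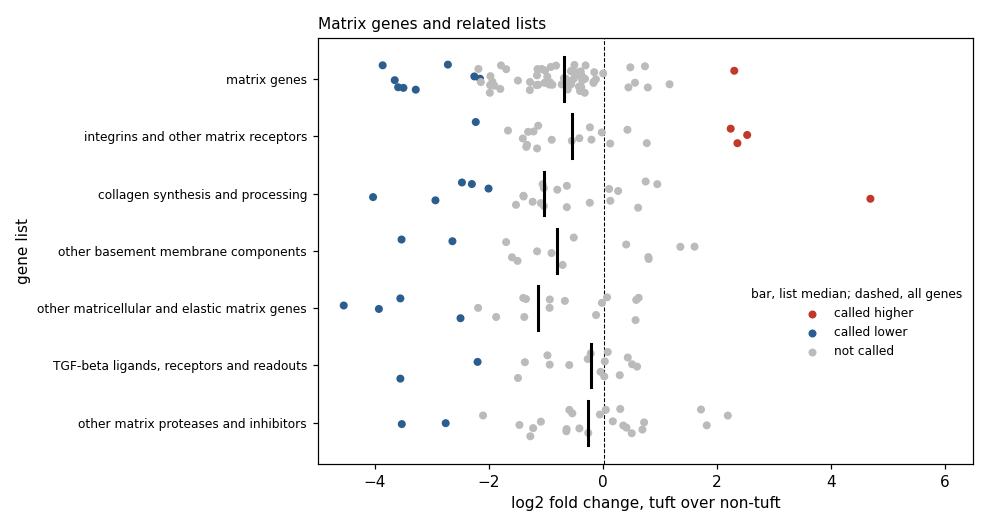
Log2 fold change (tuft over non-tuft, horizontal axis) of the 71 matrix genes and of the genes in 6 related lists, with 1 point per gene colored by its call and a bar at each list's median. The dashed line marks the median of all genes (0.02), and the list medians lie between -1.14 and -0.21.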

How the data were processed

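RNA of 100 sorted cells per library (Smart-Seq2, 50-base single-end reads without strand) was aligned by the authors to mm9 with HISAT2 and quantified with StringTie and Ballgown. Versions were not given in the sources used here. The deposited values are log2(RPKM + 1) after the authors removed transcripts of low variance and quantile normalized the libraries. That step is meant to bring all libraries onto 1 distribution. The listed values still differ at the floor, with 1442 genes there in non-tuft library 3 and 3753 in non-tuft library 2. The deposited ratio (fold change), p-value and false discovery rate columns hold the authors' own comparison and were not used. Read counts were not used here, so depth is unknown and no count test or interval could be given.

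All 12160 genes were fitted with limma 3.58.1 (R 4.3.3; lmFit and eBayes, no block), with Benjamini-Hochberg adjustment. A gene was called at adjusted p under 0.05 and fold over 4. Fold changes are on the log2(value + 1) scale and understate changes of low genes. On simulated data (12160 genes, 200 changed), 96% of genes with a log2 change of 5 and 74% with a log2 change of 3 were called, and 1.73% of the calls were false. The simulated noise was normal and independent, with no floor at 0, no shared mouse and no library standing apart. These shares therefore do not carry over to the matrix genes, many of which are listed at 0. Exact permutation tests over libraries were two-sided and took the libraries as unpaired, although both groups came from 5 mice.

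The members and lists were chosen with earlier results of these data known. Named were the genes with an adjusted p under 0.05, the 10 with the highest mean level, the highest and lowest fold change of each class, 14 fixed genes, and called genes of the other lists. Lamb1, Lamb2, Thbs1, Postn, Adamts15, Mmp15, Lox, Efemp1, Fbln5, Dpt, Ogn, Mmp2, Itga6, Itgb4, Itgb1, Dag1 and Efemp2 were named after their values were seen. The values of 1 of the 71 genes are counted but not reported here. Positions are from the mm9 annotation, and promoter windows from RefSeq GRCm38.p6. By whole gene span, Lamc1 shares 1047 bases with Gm8818 and Fn1 364 with Apol7d, on opposite strands. Timp2 shares 10141 bases with BC100451 and Col7a1 82 with Mir711, on the same strand. Alternatives were the pseudocount, a level filter, other fits and centring, thresholds, a replicate block and left-out libraries, of which leaving out both libraries numbered 5 and equalizing the floor were chosen after seeing the data.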

Additional observations from a re-analysis of the deposited data

Results flagged for a closer look

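Single libraries far from the other 4 of their group (a gap above 0.71 of the group's range) were found in 31 of 74 group tests over the 38 named genes. This cutoff gives about 1 in 20 for normally distributed values, a rate that does not apply here. Many groups were at or near 0 in most libraries, and genes were named in part by their values, so the count of 31 was not tested against chance. Of the 31, 21 were a library numbered 5. In non-tuft library 5 these were Dcn (8.34), Col3a1 (7.26), Lum (6.84), Col1a2 (6.51), Col1a1 (4.93), Loxl1 (3.95), Loxl2 (3.08) and Lama2 (2.34). In tuft library 5 they were Dcn (6.84), Lum (6.19), Col3a1 (5.10), Col1a2 (4.20), Col1a1 (3.58), Nid1 (2.93), Loxl1 (2.30), Fn1 (2.27), Lama2 (1.84), Mmp19 (1.84), Lama4 (0.45), Col4a2 (0.22) and Fbln2 (0.064).

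The other 10 were spread over libraries. Among non-tuft libraries, Mmp19 (3.41) and Adamts7 (3.05) stood high in library 2, Timp4 (1.68) stood high in library 3, and Col4a1 (0.38) stood low in library 3. Among tuft libraries, Lamb3 (1.84) and Loxl2 (0.48) stood high in library 1, Mmp14 (3.46) in library 2, Timp1 (1.37) in library 3, and Col7a1 (0.63) and Col4a1 (0.57) in library 4. In most of these groups the other 4 libraries were at or near 0, so that 1 library above the floor is enough to stand apart.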

How the results depend on the processing

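The main comparison gave 8 matrix genes lower and 1 higher, against 485 lower and 525 higher of all 12160 genes. With 10 in place of 1 added before the logarithm, 0 were called lower and 0 higher. Fold changes shrink by construction at this setting, and 278 of all genes were still called. With only genes of mean level 2 or more tested, 4 were lower, since Adamts10, Col7a1, Lama4 and Timp1 were no longer tested. Of all genes tested there, 765 were called. Centring on 76 ribosomal protein genes moved the median of all genes from 0.02 to 0.82 and left 4 lower (Lama4, Lamc1, Fn1 and Adamts1). With it 1512 of all genes were called, and the cause was not tested. Under that centring 11 fold changes that passed no test turned above 0: Col1a1 (0.50), Col1a2 (0.25), Col3a1 (0.28), Lama2 (0.65), Loxl1 (0.44), Loxl2 (0.081), Lum (0.64), Mfap3 (0.41), Mmp14 (0.17), Mmp19 (0.49) and Timp4 (0.43). With a replicate block, 8 were lower and 1 higher (1009 of all genes were called), and none of the 38 named genes changed its call. Both groups came from 5 mice, but the sources do not tie the numbers to mice, and the numbers were not taken as pairs. Equal numbers correlated at 0.062 to 0.240, above a chosen cutoff of 0.1 in 3 of 5 pairs. Such correlations cannot decide whether equal numbers share a mouse. Of the 10 libraries, 7 correlated best with their own number, and the cause of this was not tested.

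Leaving out each library in turn gave 7 to 10 matrix genes lower and 1 higher, with 841 to 1010 of all genes called. No called gene changed sign, whereas 30 of the 71 did so without some library. The 10 of these that are named by rule ranged from -1.02 to 0.67 for Col1a1, -1.40 to 0.72 for Col1a2, -1.54 to 0.91 for Col3a1, -2.50 to 0.33 for Dcn, -0.52 to 0.30 for Lama2, -0.82 to 0.42 for Loxl1, -1.40 to 1.20 for Lum, -0.69 to 0.092 for Mfap3, -0.68 to 0.37 for Mmp19 and -0.33 to 0.92 for Sparcl1, and of the other 20, Mmp2 moved most above 0 (-1.37 to 1.01). The adjusted p exceeded 0.05 for Sparc without any library but non-tuft 2 or tuft 5, for Fbln2 without any but non-tuft 1 or 3, and for Timp2 without non-tuft 1, 2, 4 or 5 or tuft 3 or 4 (largest limma adjusted p 0.0998, 0.0650 and 0.0748). Without non-tuft library 2, Adamts10 and Col7a1 fell below the fold limit, and Timp3 and Efemp2 were called (limma adjusted p 0.0264 and 0.0300). Lamb3 was called without non-tuft library 1 (0.0331) and Thbs1 without tuft library 5 (0.0348). The limits are the floor, which hides low levels, the unknown depth, and 5 libraries of 100 cells per group.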
